A study of Homo sapiens with 12 samples.

Results

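The response of B2B cells to SP600125 was measured across all genes in 4 of the 12 mRNA sequencing libraries of the series, 2 from B2B treated with 50 µM SP600125 for 72 h and 2 from B2B of the NT group, where NT stands for no treatment. B2B is BEAS-2B, a human bronchial epithelial line immortalised with a viral oncogene, and SP600125 is a small molecule that competes with ATP in the Jun N-terminal kinases (JNK) and is known to inhibit other kinases as well. Both groups were labelled wild type, and each came from 1 line, so they stand for that line and not for bronchial tissue. The labels call the NT cells untreated while the study's legends name the solvent DMSO, so effects of SP600125 and of its solvent cannot be told apart here. The other 8 libraries came from B2B that received SR11302 (10 µM, 72 h), a retinoid analogue used to block AP-1, and from A549, a lung adenocarcinoma line, treated in the same ways or not treated. They entered the same fit and serve below for 2 side comparisons, the response of A549 to SP600125 and the level under SR11302 in B2B. Both were also tested, as the response of B2B minus that of A549 and as SP600125 against SR11302 in B2B. These tests share the SP600125 or NT libraries of B2B with the main comparison, so they are not independent of it. The study asked how AP-1 and the kinase above it shape transcription in a cancer line and in a line that is not cancerous.

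AP-1 is a family of dimeric transcription factors built from Jun and Fos proteins, and JNK phosphorylates Jun in its activation domain, which raises its activity. FOS, FOSB, JUNB and JUN are immediate early genes, switched on within minutes of a growth or stress signal. Ternary complex, SRF and CREB family factors act at the promoters of FOS, FOSB and JUNB. JUN and FOSL1 are known to be activated in part by AP-1 itself. In bronchial epithelium AP-1 is known for driving genes of wound repair, matrix turnover, inflammation and keratinocyte-like differentiation.

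Reads counted in genes numbered 17459734 and 15103456 in the SP600125 libraries and 20806421 and 24917854 in the NT libraries of B2B, within the 13969766 to 24917854 of all 12. Levels are given as CPM, read counts brought to a common library total with TMM factors. Changes are log2 fold changes ± SE of SP600125 over NT, and every adjusted p comes from the quasi-likelihood F-test of edgeR with the Benjamini-Hochberg method over 16373 genes. A gene was called, and is said to rise or fall, at an adjusted p under 0.05 and a log2 fold change of at least 0.5 in size. Reads of a gene and of its antisense partner cannot be told apart where the counting ignored strand, which is not given in the sources used here. The sources do not say that the 2 libraries of a group came from separate cultures, so the p-values measure the spread between these libraries, which may be technical. Reads in no annotated gene made up 15.1% of the tally in both SP600125 libraries but 25.8% and 24.2% in the NT libraries, and 14.6% and 14.7% in the SR11302 libraries of B2B. Beside this, the 480 genes whose sequence is mostly shared with near copies in the genome had a median log2 fold change of -0.91, against 0.06 for the 11558 genes that are at least 95% unique. The same 480 genes had a median of -0.08 between SP600125 and SR11302, 2 groups without that gap in the tally. Genes with near copies are therefore marked as uncertain below, and the part of library differences in their values was not tested. As to the cells themselves, the basal cell markers KRT5 and TP63 were near 0. KRT5 stood at 0 CPM in both SP600125 libraries and at 0.0479 and 0.122 CPM in the NT libraries. TP63 stood at no more than 0.0609 CPM in any of the 4. This does not hold for all basal genes, as KRT17 and S100A2 reached the 5 CPM minimum for named list genes. Summed CPM of the bronchial epithelial markers was 400 and 436 under SP600125 and 781 and 870 in NT, mostly from KRT8 and KRT18, while 5 mesenchymal markers summed to 5940 and 6649 under SP600125 and 19790 and 20110 in NT. The epithelial label of the line therefore stood beside high levels of mesenchymal genes in all 4 libraries. In bulk samples such as these, fewer cells of a kind and less RNA per cell cannot be told apart.

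Between the SP600125 and NT libraries of B2B 43.8% of the tested genes were called, with 3478 higher (21.2%) and 3696 lower (22.6%) under SP600125. Lists with many lower members included fibrillar and basement membrane collagens (17 of 22), cholesterol synthesis (18 of 24), hypoxia and glycolysis (20 of 30, 12 of which have near copies), AP-1 responsive genes (12 of 19) and actin and SRF genes (15 of 26). Lists with many higher members included the integrated stress response (18 of 27), p53 targets (18 of 28), FOXO and nutrient stress targets (12 of 21) and ERK feedback genes (8 of 14). Each count is read against the 21.2% and 22.6% of all genes and against the median log2 fold change of all genes, 0.01. Scaled by library size alone, without TMM, all values shifted up by 0.14 on the log2 scale and the calls split into 4444 higher and 3071 lower. Under SR11302 against the same NT libraries 11.4% of all genes were higher and 11.1% lower. In that comparison interferon-stimulated (12 of 30), lysosome and autophagy (14 of 33) and complement genes (8 of 15) had as many higher members as with SP600125. By contrast, 0 of 28 p53 targets were higher there. Lower under SR11302 were 11 of 22 collagens, 9 of 26 actin and SRF genes and 6 of 19 AP-1 responsive genes. Of hypoxia and glycolysis genes 8 of 30 were lower there, and of cholesterol synthesis genes 0 of 24. The part of the NT libraries and of the solvent in the calls was not tested.

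**Figure D1:**
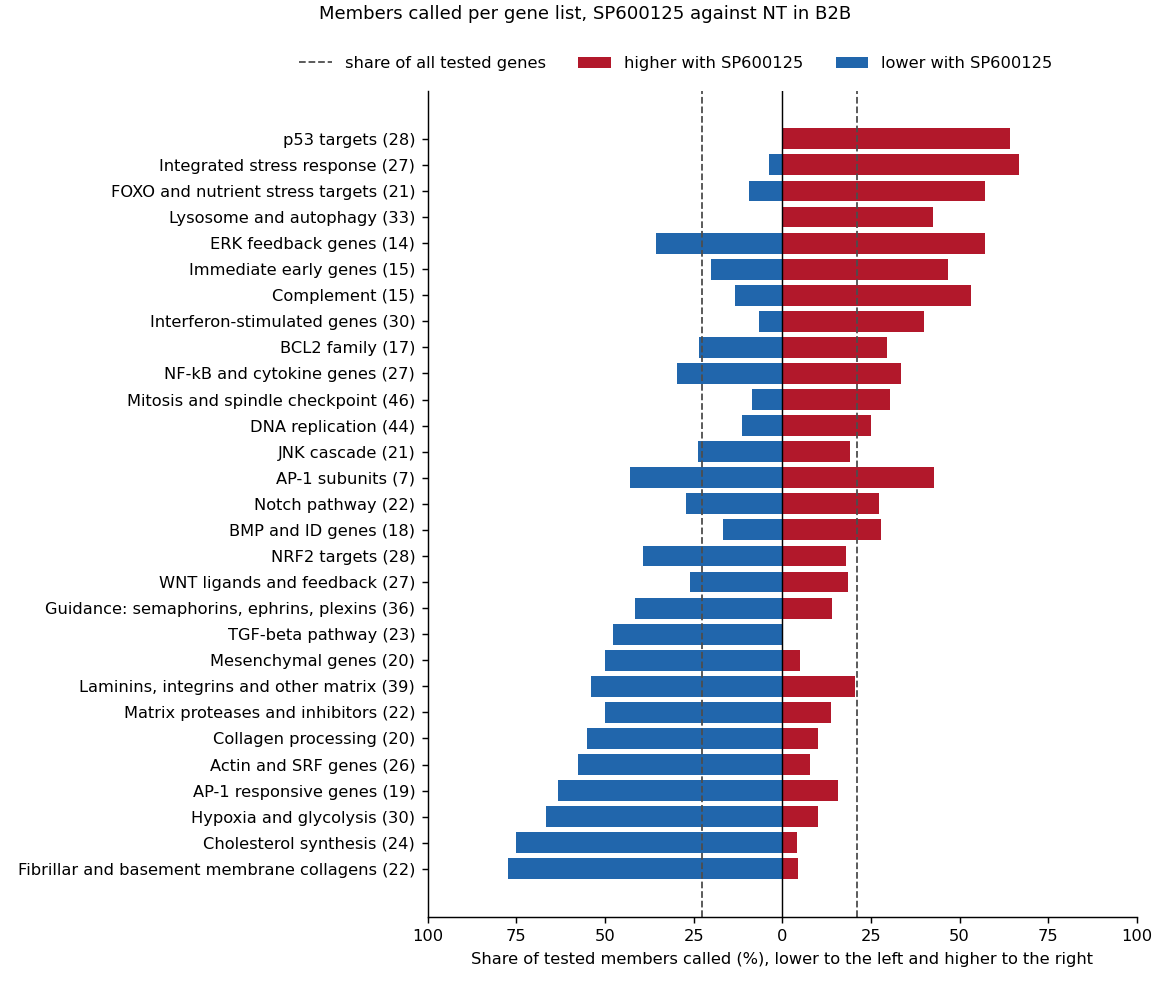
Share of tested members called higher (red, to the right) and lower (blue, to the left) with SP600125 against NT in B2B for the gene lists named on the left axis, in percent, with the number of tested members in brackets. Dashed lines mark the shares among all tested genes, 21.2% higher and 22.6% lower. Collagens and cholesterol synthesis reach furthest to the left, the integrated stress response and p53 targets furthest to the right.

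The AP-1 subunits themselves split. FOS, JUNB and FOSB rose, JUN, FOSL1 and FOSL2 fell, and JUND did not pass the test, so 3 of 7 subunits were higher and 3 lower. FOS, the founding Fos protein, stood at 69.4 and 46.4 CPM in the SP600125 libraries and at 7.86 and 8.92 CPM in the NT libraries, a log2 fold change of 2.79 ± 0.23 (adjusted p = 5.27e-07). JUNB, a Jun protein with a weaker activation domain, stood at 61.1 and 46.6 CPM against 14.8 and 16.9 CPM in NT (1.77 ± 0.15, adjusted p = 8.78e-07). In both genes the lower SP600125 library was more than 2-fold above the higher NT library. FOSB reached 6.96 and 6.82 CPM under SP600125 and 3.35 and 4.11 CPM in NT, a smaller rise of 0.88 ± 0.18 (adjusted p = 0.00111).

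On the falling side FOSL1, also named FRA1 and known from invasive epithelial cells, had 8.78 and 11.6 CPM under SP600125 and 93.4 and 98.9 CPM in NT, a log2 fold change of -3.25 ± 0.28 (adjusted p = 9.31e-07). FOSL1 has 80.8% unique windows. It was also lower than under SR11302 (-2.64 ± 0.28), where it had 58.8 and 67.8 CPM. JUN, the main substrate of JNK among transcription factors, had 90.3 and 107 CPM under SP600125 and 240 and 245 CPM in NT (-1.30 ± 0.12, adjusted p = 1.63e-06). FOSL2, or FRA2, had 131 and 126 CPM under SP600125 and 206 and 210 CPM in NT (-0.69 ± 0.10). JUND, the most evenly expressed Jun, had 75.7 and 86.4 CPM under SP600125 and 89.1 and 107 CPM in NT, and its difference of -0.27 ± 0.12 missed the threshold (adjusted p = 0.0712). No SP600125 library overlapped an NT library in any of the 7 subunits, the uncalled JUND included. With 2 libraries a group such separation says little, and its share among all tested genes was not counted.

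**Figure D2:**
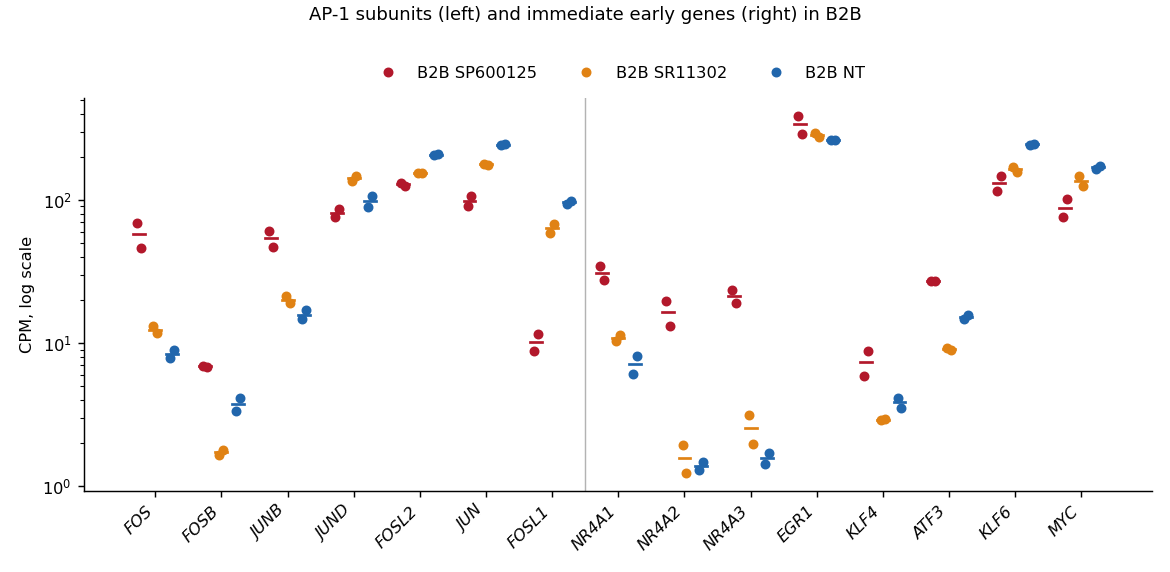
CPM on a log axis for the 7 AP-1 subunits (left of the line) and 8 immediate early genes (right of it) in B2B treated with SP600125 (red), treated with SR11302 (orange) or NT (blue). Each point is 1 library and each bar the mean of 2. FOS, JUNB, NR4A1, NR4A2 and NR4A3 lie above both other groups under SP600125, JUN and FOSL1 below both.

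The promoters of these genes are shown because subunits that moved in opposite directions carry the same short element. The CRE core, TGACG, bound by CREB and ATF proteins and by some AP-1 dimers, was looked for on both strands in the 300 bases from 250 before to 50 after each gene start of RefSeq (build GRCh38.p14). It lay in all 6 promoters of AP-1 subunits with an entry (FOSL1 had none) and in 5134 of 16904 promoters of tested genes (30.4%). Here and below these promoters cover 11640 of the 16373 tested genes. Genes without an entry and those on 1 autosome were among those left out, also from the lists. The AP-1 site TGANTCA lay in 1 of the 6 and in 5.58% of all promoters. Capitals mark TGACG or its reverse complement, which begins 64 bases before the start in FOS (chr14:75278578-75278877, plus strand), 137 before in JUNB (chr19:12791236-12791535, plus strand) and 123 before in JUN (chr1:58783998-58784297, minus strand). A match describes the letters only.
FOS: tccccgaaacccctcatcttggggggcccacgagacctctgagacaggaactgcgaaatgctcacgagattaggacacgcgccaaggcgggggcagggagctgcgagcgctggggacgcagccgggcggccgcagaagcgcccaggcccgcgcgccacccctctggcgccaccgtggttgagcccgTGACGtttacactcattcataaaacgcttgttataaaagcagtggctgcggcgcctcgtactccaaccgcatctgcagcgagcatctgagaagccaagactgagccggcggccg
JUNB: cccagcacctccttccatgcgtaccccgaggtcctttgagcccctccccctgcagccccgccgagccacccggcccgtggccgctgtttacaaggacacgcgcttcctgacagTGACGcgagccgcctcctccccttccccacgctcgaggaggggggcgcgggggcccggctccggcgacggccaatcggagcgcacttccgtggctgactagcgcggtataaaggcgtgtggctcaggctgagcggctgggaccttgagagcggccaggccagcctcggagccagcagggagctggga
JUN: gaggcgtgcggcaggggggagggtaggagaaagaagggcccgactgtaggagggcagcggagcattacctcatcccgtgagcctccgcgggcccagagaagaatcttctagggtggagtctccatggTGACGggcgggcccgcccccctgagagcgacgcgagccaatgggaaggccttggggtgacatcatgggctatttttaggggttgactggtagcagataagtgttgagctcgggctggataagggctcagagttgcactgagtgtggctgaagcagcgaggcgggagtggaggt

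Of the kinases and scaffolds of the JNK cascade, 4 of 21 were higher and 5 lower, close to the shares of all genes, and the list median was 0.13. SH3RF1, the scaffold known as POSH that joins RAC to the kinases above JNK, fell most, to 47.8 and 55.4 CPM under SP600125, against 168 and 162 CPM in NT (-1.68 ± 0.12). MAP3K5, the oxidant-sensing kinase ASK1 (-1.31 ± 0.23), and the scaffold MAPK8IP3 (-1.18 ± 0.14) also fell. MAPK8, which encodes JNK1, stood at 61.8 and 60.3 CPM under SP600125 and 53.6 and 52 CPM in NT and was not called (0.21 ± 0.12), nor was MAPK9, which encodes JNK2 (-0.11 ± 0.10). The transcripts of the 2 kinases that SP600125 is used against thus stayed within the fold minimum.

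Immediate early genes as a list were higher in 7 and lower in 3 of 15 cases, with a list median of 0.50. The NR4A orphan nuclear receptors, which respond to cAMP, calcium and growth signals, made up the top of it. NR4A3 stood at 23.4 and 19.2 CPM under SP600125 and 1.44 and 1.71 CPM in NT (3.75 ± 0.22, adjusted p = 2.95e-08). NR4A2 stood at 19.5 and 13.2 CPM against 1.29 and 1.47 CPM in NT (3.56 ± 0.26), and NR4A1 at 34.4 and 27.6 CPM against 6.13 and 8.1 CPM (2.12 ± 0.16). SR11302 left them near the NT level, with NR4A2 at 1.93 and 1.24 CPM. EGR1, a zinc finger factor that many of the same signals induce, had 386 and 290 CPM under SP600125 and 263 and 262 CPM in NT and did not pass (0.37 ± 0.16), but was called higher without SP600125 replicate 2 (0.57, adjusted p = 0.0204) and with library size scaling (0.51, adjusted p = 0.0206). MYC, the growth factor-induced transcription factor, moved the other way, with 75.4 and 101 CPM under SP600125 and 165 and 174 CPM in NT (-0.94 ± 0.15). KLF6, another zinc finger factor, fell by 0.91. The CRE core lay in 5 of 14 promoters of immediate early genes (35.7%), near the 30.4% of all promoters of tested genes. The promoter of NR4A3 (chr9:99821635-99821934, plus strand) holds it 4 times, 109, 91, 83 and 25 bases before the start. It is printed for that reason and does not stand for the list, with the matches in capitals.
NR4A3: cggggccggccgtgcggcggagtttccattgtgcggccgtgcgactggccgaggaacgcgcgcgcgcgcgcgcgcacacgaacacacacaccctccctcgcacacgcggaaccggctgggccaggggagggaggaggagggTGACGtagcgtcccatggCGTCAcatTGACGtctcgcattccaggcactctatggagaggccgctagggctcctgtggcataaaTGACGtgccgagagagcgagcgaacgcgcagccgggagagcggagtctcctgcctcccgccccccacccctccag

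ERK feedback genes, which are induced by ERK signalling and most of which restrain it, were higher in 8 and lower in 5 of 14. DUSP6, a phosphatase of ERK, had 15.8 and 19.2 CPM under SP600125 and 5.65 and 4.72 CPM in NT (1.76 ± 0.19). SPRY1 and SPRED2, which block signalling from growth factor receptors to RAS, rose by 1.68 ± 0.20 and 1.06 ± 0.10. ETV4, an ETS factor downstream of ERK, fell by 1.41, to 1.77 and 3.59 CPM, against 6.85 and 7.17 CPM in NT. Members of this list therefore moved both ways beyond the spread of the libraries.

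Genes known to respond to AP-1 were lower in 12 of 19 cases and higher in 3, with a list median of -1.03. CD44, the hyaluronan receptor, fell to 62.5 and 90 CPM under SP600125, against 638 and 628 CPM in NT (-3.06 ± 0.15), and EREG, an EGF receptor ligand, to 0.988 and 3.47 CPM, against 14.8 in both NT libraries (-2.77 ± 0.34). Both genes were also lower than under SR11302, at -2.30 and -2.88 on the log2 scale. The collagenase MMP1, the classic AP-1 target, went against the list, with 7.38 and 6.94 CPM under SP600125, 0.206 and 0.0563 CPM under SR11302 and 0.383 and 0.122 CPM in NT. The rise of 4.84 ± 0.35 over NT (adjusted p = 1.99e-07) and of 5.59 ± 0.39 over SR11302 came from a low base. IL6 rose as well (18.4 and 17.9 CPM against 3.31 and 3.99 CPM in NT, 2.31 ± 0.26), as did CXCL8 (1.29 ± 0.43), whose call was lost without NT replicate 1 (1.20), NT replicate 2 (1.38) or SP600125 replicate 1 (1.00).

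Matrix genes fell across classes. Of the collagens, 17 of 22 were lower and 1 higher, with a list median of -1.16, and all 22 have at least 95% unique windows. Under SR11302 against the same NT libraries 11 of 22 were lower and 2 higher, with a list median of -0.62. In that comparison 11.1% of all genes were lower. COL1A1, a chain of the main fibrillar collagen, had 372 and 382 CPM under SP600125 and 4296 and 4391 CPM in NT (-3.53 ± 0.29, adjusted p = 5.63e-07). Its partner chain COL1A2 had 14.6 and 17.9 CPM against 103 and 102 CPM in NT (-2.66 ± 0.23), and COL3A1 13.7 and 11.7 CPM against 54.2 and 54.7 CPM (-2.10 ± 0.15). The only collagen that rose was COL12A1, a fibril-associated chain, at 0.73 ± 0.12. Among 20 genes that process collagen, 11 fell and 2 rose. The crosslinking enzymes LOX (48.1 and 53.1 CPM against 224 and 215 CPM in NT, -2.12 ± 0.13) and LOXL1 (-2.75 ± 0.21) fell, while LOXL4 of the same family rose to 5.2 and 5.11 CPM, against 1.63 and 1.26 CPM in NT (1.84 ± 0.26).

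Laminins, integrins and other matrix genes were lower in 21 of 39 cases and higher in 8 (4 without SP600125 replicate 2). Tenascin C (TNC), a wound matrix protein, fell to 18.5 and 29.9 CPM, against 753 and 776 CPM in NT (-4.99 ± 0.30, adjusted p = 3.45e-08). Periostin (POSTN) and thrombospondin 2 (THBS2), matricellular proteins, fell (-4.56 and -4.42), and THBS2 was lower still against SR11302 (-5.16 ± 0.33), which left it at 824 and 732 CPM. Fibronectin (FN1) had 4633 and 5169 CPM under SP600125, 6354 and 5928 CPM under SR11302 and 13610 and 13790 CPM in NT, and was not called between the inhibitors (-0.33 ± 0.21). The integrin chain ITGB5 (1.52 ± 0.10) and the laminin chain LAMB2 (0.95 ± 0.14) rose, so the direction was not shared by every member.

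**Figure D3:**
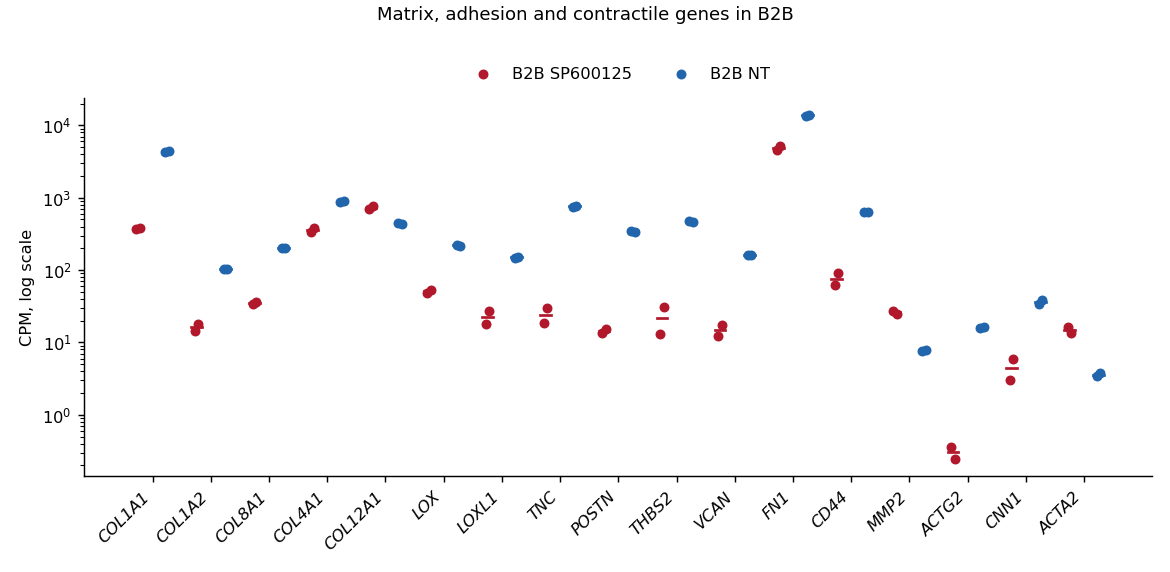
CPM on a log axis for 17 matrix, adhesion and contractile genes in B2B treated with SP600125 (red) or NT (blue). Each point is 1 library and each bar the mean of 2. COL1A1, TNC, POSTN, THBS2 and ACTG2 lie furthest below NT with SP600125, while COL12A1, MMP2 and ACTA2 lie higher.

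Matrix proteases and their inhibitors were lower in 11 of 22 and higher in 3, among them MMP2, a gelatinase, which rose to 27.4 and 25 CPM, against 7.62 and 7.9 CPM in NT (1.76 ± 0.16), and the metalloprotease ADAMTS1, which fell by 2.28. The TGF-beta pathway had no higher and 11 lower members of 23 (2 higher with library size scaling, 1 without SP600125 replicate 1). The type I receptor TGFBR1 fell to 76 and 91.2 CPM, against 317 and 311 CPM in NT (-1.91 ± 0.20), and the ligand TGFB2 (-1.33) and the activin subunit INHBB (-2.93) fell as well. TGFB2 had 139 and 112 CPM under SR11302, which was not called apart from SP600125 (-0.25 ± 0.16) except without SP600125 replicate 2 (-0.52, adjusted p = 0.0389). On the BMP side, 5 of 18 genes rose and 3 fell. The BMP antagonist NOG fell to 3.43 and 4.75 CPM, against 58 and 67.3 CPM in NT (-3.95 ± 0.24), while the ligand BMP4 rose to 114 and 95.4 CPM, against 35.5 and 40.8 CPM in NT (1.46 ± 0.12), and the inhibitors of differentiation ID2 (uncertain, with 66.9% of its windows unique) and ID4 rose by 1.95 and 1.97.

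Actin and SRF genes were lower in 15 of 26 cases and higher in 2, and 10 of 19 fell among those with unique sequence. Contractile genes of smooth muscle type moved in opposite directions. ACTG2, the enteric smooth muscle actin, fell to 0.364 and 0.243 CPM, against 16 and 16.2 CPM in NT (-5.68 ± 0.34), and calponin (CNN1) to 3.02 and 5.96 CPM, against 34.1 and 38.2 CPM (-3.03 ± 0.25). ACTA2, the vascular smooth muscle actin, rose to 16.4 and 13.4 CPM, against 3.4 and 3.79 CPM in NT (2.05 ± 0.16, adjusted p = 4.04e-07). TAGLN, an actin-binding protein of smooth muscle, fell by 3.72, with only 62.2% of its windows unique. YAP targets were mixed, 3 of 16 higher and 6 lower, with ANKRD1 at 39 and 58.9 CPM under SP600125 and 15 and 17.3 CPM in NT (1.60 ± 0.17), and AXL, a receptor kinase, at -1.26 ± 0.13.

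Targets of p53 rose without exception among those called, 18 of 28 higher and 0 lower, with a list median of 0.93 (14 of 21 among genes with unique sequence). CDKN1A, which encodes the CDK inhibitor p21, had 292 and 283 CPM under SP600125 and 90.8 and 101 CPM in NT (1.58 ± 0.11, adjusted p = 9.35e-08). It was also higher than under SR11302, where it had 75.4 and 76.6 CPM. BTG2, an antiproliferative gene, had 47.1 and 44 CPM against 8.72 and 9.49 CPM in NT (2.32 ± 0.14), and GDF15, a stress cytokine, 15.9 and 16.6 CPM against 3.06 and 3.99 CPM (2.19 ± 0.15). Neither MDM2 (0.03 ± 0.16), the p53 feedback ligase, nor BAX (-0.08 ± 0.15), its classic death gene, passed the test, so the list did not move as a whole.

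Of the cyclins, E2Fs and CDK inhibitors of G1, 7 of 23 were higher and 3 lower. CCNE1, which encodes cyclin E1, rose to 20.4 and 20.8 CPM, against 8.62 and 7.78 CPM in NT (1.33 ± 0.14), and the pocket protein gene RBL2 to 196 and 178 CPM, against 76.8 and 72.5 CPM (1.32 ± 0.13), while the G1 kinase CDK6 fell to 68.6 and 80.3 CPM, against 250 and 233 CPM (-1.70 ± 0.18). Genes of DNA replication were higher in 11 and lower in 5 of 44 (17 higher with library size scaling) and those of mitosis higher in 14 and lower in 4 of 46 (8 higher without SP600125 replicate 1). Their medians were 0.21 and 0.24. The sliding clamp PCNA rose to 426 and 492 CPM, against 201 and 200 CPM in NT (1.19 ± 0.11, copies in the genome), and the mitotic spindle gene TPX2 to 979 and 797 CPM, against 466 and 468 CPM (0.93 ± 0.14). The DNA methylation cofactor UHRF1, uncertain with 41.3% unique windows, fell by 1.67. MKI67, the usual proliferation marker, had 1425 and 1225 CPM under SP600125 and 1287 and 1248 CPM in NT, and PLK1, the polo-like mitotic kinase, 237 and 178 CPM against 190 and 204 CPM, so the groups overlapped in both genes.

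The same lists fell in A549 under SP600125, where 48.8% of genes were called (25% lower). There 31 of 44 replication genes were lower and 0 higher, and 26 of 46 mitotic genes lower and 1 higher. The difference between the lines was tested as an interaction, the response of B2B minus that of A549, which called 25.2% of all genes, 2137 higher (13.1%) and 1984 lower (12.1%). In it 38 of 44 replication genes and 35 of 46 mitotic genes were higher in B2B and none lower, and among genes with unique sequence 24 of 27 and 28 of 37. PLK1 fell in A549 (-1.31 ± 0.18) and stood at 0.07 ± 0.17 in B2B, and UHRF1, which fell in both, still differed by 1.86 ± 0.24. PCNA, which rose in B2B, stood at 0.47 ± 0.11 in A549, under the fold minimum, and the difference was 0.72 ± 0.15 (adjusted p = 0.0038). These counts were within 1.5 times of the main ones without each library in turn. For p53 targets the interaction ran the other way, 14 of 28 lower in B2B and 2 higher (1 higher without any single library of the 4 groups except SP600125 replicate 2 of B2B), while CDKN1A did not differ between the lines (0.25 ± 0.15).

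**Figure D4:**
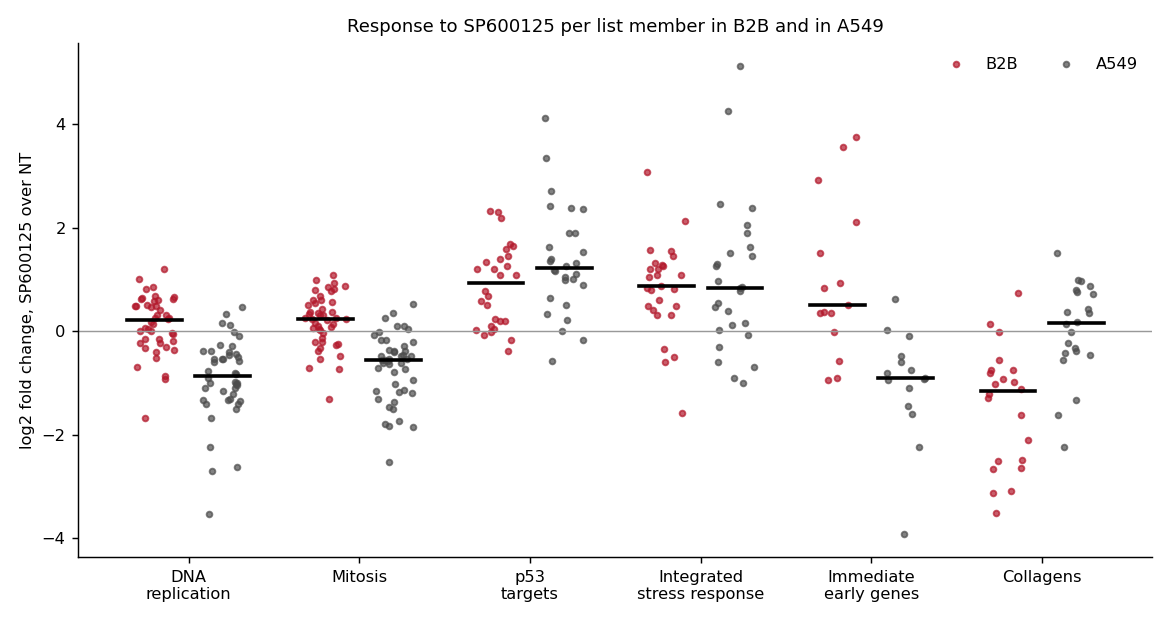
log2 fold change of SP600125 over NT in B2B (red) and in A549 (grey) for the tested members of 6 gene lists. Each point is 1 gene and each bar the list median. Replication genes have medians of 0.21 in B2B and -0.87 in A549, mitotic genes 0.24 and -0.56, immediate early genes 0.50 and -0.90, and collagens -1.16 and 0.15. Some collagens, COL1A2 and COL3A1 among them, had at most 1.5 CPM in these A549 libraries.

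The promoter of PLK1 (chr16:23678639-23678938, plus strand, RefSeq, GRCh38.p14) is printed as an example of the mitotic genes. Its capitals mark the core of the cell cycle homology region, TTTGAA on either strand, an element known to bind the repressor complex that RBL2 and its relatives form, beginning 29 bases before the start. It lay in 30 of 51 promoters of mitotic genes (58.8%), in 1 of 47 promoters of replication genes (2.13%) and in 10.9% of all promoters of tested genes.
PLK1: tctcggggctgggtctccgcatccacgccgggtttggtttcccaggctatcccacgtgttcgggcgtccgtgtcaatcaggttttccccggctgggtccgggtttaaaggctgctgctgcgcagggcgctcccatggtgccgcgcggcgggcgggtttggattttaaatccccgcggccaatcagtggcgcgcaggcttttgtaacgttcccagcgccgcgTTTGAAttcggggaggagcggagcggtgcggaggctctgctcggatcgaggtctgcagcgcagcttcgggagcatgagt

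Immediate early genes and AP-1 subunits likewise answered differently in A549. Of the 7 subunits 6 fell and 0 rose there, and the interaction was higher in B2B for 5 of 7 and lower for 0. FOS fell in A549 to 141 and 138 CPM under SP600125, against 323 and 311 CPM in NT (-1.19 ± 0.20), and the interaction was 3.98 ± 0.30 (adjusted p = 1.7e-06). FOSB fell there to 21.2 and 18.6 CPM, against 256 and 280 CPM, with an interaction of 4.63 ± 0.23, and NR4A1 to 73.5 and 68.7 CPM, against 360 and 308 CPM (interaction 4.35 ± 0.22). All 3 genes thus fell in the line where they started higher and rose in the line where they started lower. JUN (0.25 ± 0.17) and FOSL1 (0.77 ± 0.39), the subunits that fell most in B2B, had no interaction past the threshold, though FOSL1 was called without the low count filter (0.77, adjusted p = 0.00263) and with only the groups compared (0.74, adjusted p = 0.00205). Of the immediate early genes 11 of 15 were higher in the interaction and 0 lower. Collagens ran the other way, 15 of 22 lower in B2B than in A549 and 0 higher, with COL11A1, a minor fibrillar chain, at -3.61 ± 0.59. Some collagens were scarce in A549, where COL1A2 had at most 0.345 CPM and COL3A1 at most 1.5 CPM in the SP600125 and NT libraries. The difference for COL1A2 was not called (-2.79) and stood at -7.51 without A549 NT replicate 2. For such genes the A549 response is poorly measured. CD44 (-2.64 ± 0.20) fell in B2B and did not reach the fold minimum in A549.

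The integrated stress response, the program that ATF4 runs when amino acids are short or translation is held back, rose in 18 of 27 cases and fell in 1. The list median was 0.87. With RLE scaling, no low count filter, DESeq2 or only the groups compared, 2 members were lower. More than 1 was also lower without SP600125 replicate 2 or NT replicate 1. The glutathione-degrading enzyme CHAC1 had 8.42 and 13.6 CPM under SP600125 and 3.69 and 3.71 CPM in NT (1.56 ± 0.23, adjusted p = 7.25e-05). It was also higher than under SR11302, where it had 1.73 and 1.75 CPM. DDIT4, an inhibitor of mTORC1, had 95.2 and 122 CPM against 23.3 and 25.9 CPM in NT (2.14 ± 0.13). NUPR1, a stress-induced chromatin protein, had 6.96 and 13.6 CPM against 0.814 and 1.55 CPM (3.08 ± 0.33, some windows shared). STC2, a secreted glycoprotein, was the member that fell in the main fit, to 126 and 224 CPM, against 512 and 544 CPM in NT. Against SR11302, where 15.6% of all genes were higher and 18.1% lower, 22 of the 27 were higher and 2 lower (1 lower without either SR11302 library or SP600125 replicate 1). The chaperones of the endoplasmic reticulum, another stress arm, were higher in 3 and lower in 5 of 25, with SDF2L1 at -1.60 ± 0.22.

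The amino acid response element core, TGATGNAA on either strand, where ATF4 binds with C/EBP partners, lay in 6 of 34 promoters of this list (17.6%) and in 2.11% of all promoters of tested genes. It is shown in capitals in CHAC1 (chr15:40953221-40953520, plus strand), where it begins 209 bases before the start, and in ASNS, the asparagine synthetase gene (chr7:97872359-97872658, minus strand, 1 of 2 entries), where it begins 68 bases before. ASNS had 72.5 and 168 CPM under SP600125, 19.1 and 18.1 CPM under SR11302 and 39.8 and 42.1 CPM in NT (1.55 ± 0.25 over NT), with some windows shared with other loci. Its 2 SP600125 libraries differed more than 2-fold, and both stood above NT.
CHAC1: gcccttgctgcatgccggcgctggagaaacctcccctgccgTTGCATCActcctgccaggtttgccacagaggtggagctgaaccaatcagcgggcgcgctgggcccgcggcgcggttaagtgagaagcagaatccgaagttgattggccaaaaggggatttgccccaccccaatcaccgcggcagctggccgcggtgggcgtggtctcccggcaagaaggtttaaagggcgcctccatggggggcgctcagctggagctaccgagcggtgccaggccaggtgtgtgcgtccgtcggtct
ASNS: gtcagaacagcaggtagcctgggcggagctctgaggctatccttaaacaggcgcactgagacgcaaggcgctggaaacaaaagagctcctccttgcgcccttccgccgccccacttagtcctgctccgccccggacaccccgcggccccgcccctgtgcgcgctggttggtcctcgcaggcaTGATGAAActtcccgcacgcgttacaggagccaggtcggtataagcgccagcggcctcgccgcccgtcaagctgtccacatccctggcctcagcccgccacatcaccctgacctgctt

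FOXO and nutrient stress targets were higher in 12 and lower in 2 of 21. FOXO1, a forkhead factor held in check by insulin signalling, rose to 33.9 and 33.8 CPM, against 7.42 and 8.18 CPM in NT (2.11 ± 0.18), the ubiquitin ligase adaptor KLHL24 to 58.5 and 52 CPM, against 10.2 and 9.08 CPM (2.52 ± 0.31), and the insulin receptor INSR by 1.10. SESN3, a sestrin that restrains mTORC1, rose to 10.2 and 5.54 CPM, against 0.383 and 0.489 CPM in NT, but stood at 14.4 and 10.5 CPM under SR11302 (-0.65 ± 0.34 between the inhibitors, not called, though called lower without the low count filter, at -0.66 with an adjusted p of 0.00131, and with only the groups compared, at -0.67 with an adjusted p of 0.0105). Of 33 lysosome and autophagy genes 14 rose and 0 fell (1 lower without SP600125 replicate 2), among them the cholesterol carrier NPC2 (100 and 90.7 CPM against 28.7 and 31.4 CPM in NT, 1.67 ± 0.13) and the autophagy receptor SQSTM1 (1.09 ± 0.12). In the BCL2 family the BH3-only killers BMF (2.59 ± 0.20), BBC3 (1.65 ± 0.19) and BCL2L11 (1.65 ± 0.15) rose, each at least 2-fold in the lower SP600125 library over the higher NT library. So did the survival genes BCL2L1 (1.31 ± 0.11) and BCL2 (1.07 ± 0.20), giving 5 of 17 higher and 4 lower.

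Cholesterol synthesis fell in 18 of 24 cases and rose in 1 (0 without SP600125 replicate 1), with a list median of -0.74. LSS, which closes the sterol ring, fell to 32.6 and 32.1 CPM, against 92.6 and 98.8 CPM in NT (-1.56 ± 0.13). DHCR7, the last reductase of the pathway, also fell (-1.24). Against SR11302, 21 of 24 were lower and 0 higher (list median -1.33). In B2B under SR11302 16 of 24 were higher than in NT and 0 lower, where 11.4% of all genes were higher and 11.1% lower. DHCR7 stood at 19.4 and 22.7 CPM under SP600125, 123 and 129 CPM under SR11302 and 46.1 and 53.4 CPM in NT. NT libraries thus lay between the inhibitors for this gene. Fatty acid genes were mixed, 7 of 26 lower and 3 higher (7 higher with library size scaling), with FASN, the fatty acid synthase, at 124 and 105 CPM under SP600125 and 519 and 560 CPM in NT (-2.24 ± 0.16) and the acetate-activating ACSS2 at 1.05 ± 0.11.

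**Figure D5:**
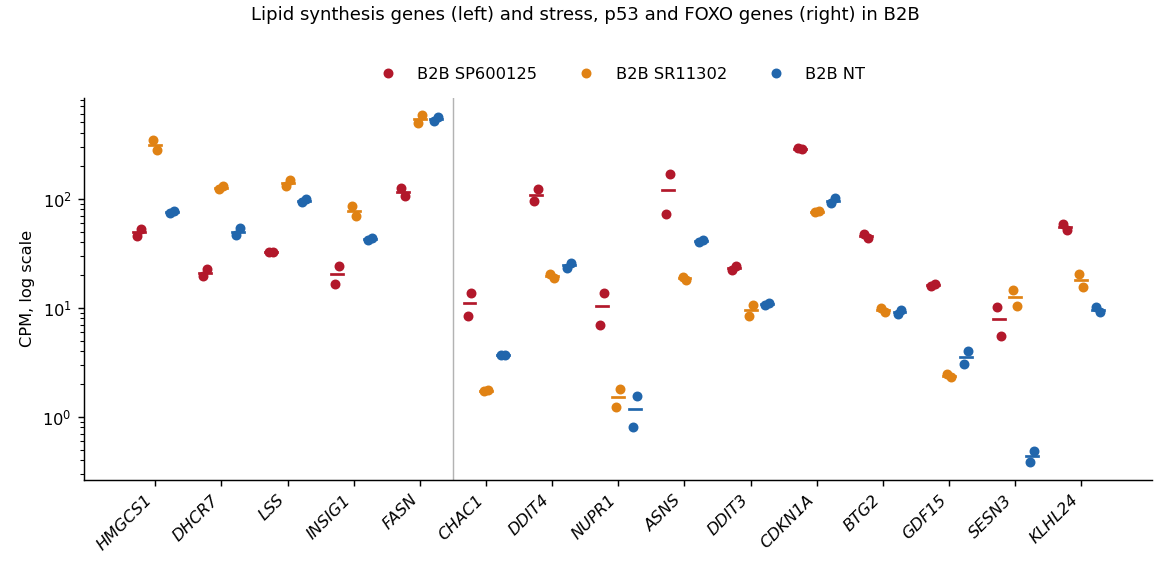
CPM on a log axis for 5 lipid synthesis genes (left of the line) and 10 stress, p53 and FOXO genes (right of it) in B2B treated with SP600125 (red), treated with SR11302 (orange) or NT (blue). Each point is 1 library and each bar the mean of 2. Lipid genes are lowest under SP600125 and most are highest under SR11302, while CHAC1, DDIT4, CDKN1A and BTG2 are highest under SP600125.

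Several lists of abundant genes fell against NT in a way that near copies touch. Hypoxia and glycolysis genes were lower in 20 of 30 and higher in 3, but in 8 and 3 of 18 with unique sequence. PGAM1, a glycolytic mutase with near copies, had 16.9 CPM in both SP600125 libraries, 26.4 CPM in both SR11302 libraries and 107 and 108 CPM in NT. HK2, the inducible hexokinase, had 13.1 and 16.2 CPM under SP600125, 42.4 and 36.8 CPM under SR11302 and 90.8 and 89.3 CPM in NT (73.8% unique windows). NDRG1, a hypoxia and stress gene of unique sequence, rose to 60.9 and 48.3 CPM, against 7.47 and 8.22 CPM in NT (2.80 ± 0.16). Cytosolic chaperones were lower in 10 of 20 and higher in 0, yet in 1 of 8 with unique sequence. Of the cytosolic ribosomal proteins 47 of 83 were lower and 9 higher (5 higher without NT replicate 1), and 1 of the 83 has unique sequence. Against SR11302 the ribosomal proteins were higher in 15 and lower in 10 (9 higher without SP600125 replicate 2, 5 and 4 lower without SR11302 replicate 2 and SP600125 replicate 1). NPM1, a nucleolar chaperone with many copies, had 259 and 316 CPM under SP600125, 378 and 371 CPM under SR11302 and 1626 and 1656 CPM in NT, so it fell by 2.51 against NT. Its difference from SR11302 was -0.38 ± 0.13 and not called, but -0.53 and called without SP600125 replicate 2 (adjusted p = 0.0189).

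NF-kB and cytokine genes were higher in 9 and lower in 8 of 27 (5 lower without SP600125 replicate 1). ICAM1, an adhesion molecule for leukocytes, rose to 47.5 and 52.7 CPM, against 18.9 and 19.8 CPM in NT (1.37 ± 0.17). The cytokine IL18 fell to 9.15 and 15.3 CPM, against 41.1 and 39.6 CPM in NT (-1.73 ± 0.20, 87% unique windows), and the monocyte chemokine CCL2 to 4.21 and 4.56 CPM, against 12.7 and 13.6 CPM (-1.59 ± 0.22). CCL2 was at 52.7 and 49.7 CPM under SR11302. Against SR11302, 17 of the 27 were higher and 3 lower. Of 30 tested interferon-stimulated genes 12 rose and 2 fell, from low levels, as with IFIT2, which hinders viral translation (10.6 and 15 CPM against 2.63 and 2.4 CPM in NT, 2.34 ± 0.26). TRIM22 rose to 48.4 and 48.2 CPM, against 12.9 and 12.7 CPM in NT (1.91 ± 0.23), while ISG15 fell by 1.06. Among complement genes 8 of 15 rose and 2 fell (1 without either NT library or SP600125 replicate 1), with C5 at 11.6 and 9.92 CPM under SP600125 and 2.06 and 2.61 CPM in NT and the regulator CD55 at 1.47 ± 0.10. Antigen presentation genes of MHC class I were higher in 6 and lower in 2 of 16, with the peptide trimmer ERAP1 at 1.19 ± 0.13.

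Xenobiotic genes did not move as 1 group. Of 11 targets of the aryl hydrocarbon receptor 3 rose and 4 fell. CYP1B1 fell to 74.2 and 76.6 CPM, against 324 and 331 CPM in NT (-2.12 ± 0.12), and the difference of its response from that of A549 was -3.21 ± 0.16. Targets of NRF2 were lower in 11 and higher in 5 of 28, but without NT replicate 2 they were lower in 7 and higher in 10 (7 lower also without SP600125 replicate 1). NT replicate 2 held RNA of genes that are abundant in A549, with 46.7 CPM of ALDH1A1 against 1.44 CPM in NT replicate 1, and 13 such genes summed to 26.1 and 24.8 CPM under SP600125 and 16.3 and 124 CPM in NT. The falls of AKR1B10 (-4.25), AKR1C2 (-3.73) and ALDH1A1 (-3.65) turned to 2.05, 2.29 and 0.43 without NT replicate 2, so no direction is given for them. The export pump ABCC3 (88.4 and 98.3 CPM against 19.8 and 20.6 CPM in NT, 2.21 ± 0.13) and the epoxide hydrolase EPHX1 (105 and 86.8 CPM against 22 and 25.4 CPM, 2.01 ± 0.13) rose in both SP600125 libraries over both NT libraries.

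Lists of cell identity changed in part. Of the epithelial genes 6 of 21 were higher and 6 lower (3 lower without NT replicate 2). GRHL1, a grainyhead factor of epithelia, rose to 8.99 and 9.86 CPM, against 2.87 and 2.56 CPM in NT (1.79 ± 0.22), while ESRP2, an epithelial splicing factor, fell by 1.33. Genes of mesenchymal cells were lower in 10 of 20 and higher in 1. The repressors SNAI2 (4.94 and 5.29 CPM against 19.8 and 20.4 CPM in NT, -1.97 ± 0.23) and SNAI1 (-1.27 ± 0.22) and the cadherin CDH11 (-2.55 ± 0.23) fell, and the repressor ZEB1 rose (1.05 ± 0.17). SNAI2 was likewise low under SR11302, at 6.99 and 5.52 CPM. Keratins and basal genes were lower in 10 of 15, 4 of 8 with unique sequence. KRT7, a simple epithelial keratin, fell to 312 and 431 CPM, against 902 and 998 CPM in NT (-1.35 ± 0.18). Beside these, 8 endothelial markers summed to 10.9 and 14.6 CPM under SP600125 and 2.06 and 2.20 CPM in NT, and 5 of the 7 tested were higher and 0 lower. The same sum was 19.5 and 18.1 CPM under SP600125 and 3.95 and 3.35 CPM in NT in A549. PECAM1, among them, had 3.59 and 4.87 CPM under SP600125 and no count in either NT library. Summed fibroblast markers were 211 and 207 CPM under SP600125 and 310 and 321 CPM in NT, leukocyte markers 7.69 and 11.6 CPM under SP600125 and 14.5 and 14.2 CPM in NT, and ciliated cell markers 4.78 and 5.42 CPM under SP600125 and 6.13 and 7.57 CPM in NT. The part of such cells in the results was not tested.

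Growth factor systems changed member by member. The counts below for WNT and clock genes were close to the shares of all genes, 21.2% higher and 22.6% lower. In the EGF family 5 of 16 genes fell and 4 rose, with HBEGF at 41.8 and 44.5 CPM under SP600125 and 134 and 143 CPM in NT (-1.68 ± 0.14) and the ligand TGFA at 1.11 ± 0.19. FGF5 fell to 4.42 and 4.5 CPM, against 62.6 and 60.4 CPM in NT (-3.78 ± 0.26, some windows shared), and 6 of 12 genes of the FGF family were lower and 2 higher. IGFBP3, which sequesters insulin-like growth factors, fell to 353 and 352 CPM, against 1729 and 1797 CPM in NT (-2.32 ± 0.12), and IGFBP5 of the same family rose to 76.7 and 92.8 CPM, against 29.4 and 31.2 CPM (1.48 ± 0.15). IGFBP5 was higher still under SR11302, at 206 and 155 CPM. WNT genes were higher in 5 and lower in 7 of 27, among the lower ones the ligand WNT5B (-1.77 ± 0.20), and the WNT antagonist SFRP1 rose to 148 and 131 CPM, against 50.2 and 54.2 CPM in NT. In the Notch pathway 6 of 22 rose and 6 fell (3 higher without SP600125 replicate 1), with LFNG, which tunes Notch by adding a sugar, at 1.61 and 1.52 CPM under SP600125 and 13.1 and 13.6 CPM in NT (-3.08 ± 0.26). Guidance genes were lower in 15 of 36 and higher in 5 (3 without SP600125 replicate 1 or NT replicate 2). The secreted semaphorins SEMA3A and SEMA3E fell, SEMA3A to 6.39 and 8.95 CPM, against 48.5 and 46.9 CPM in NT (-2.64 ± 0.22), and SEMA3E with a log2 fold change of -2.66, while the ephrin EFNA1 rose to 48 and 31.3 CPM, against 3.16 and 3.71 CPM (3.53 ± 0.22). Clock genes were higher in 4 and lower in 4 of 19, with PER2, a repressor of the clock, at 6.76 and 7.49 CPM under SP600125 and 15.8 and 16.2 CPM in NT.

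Further lists held single genes that moved. Of the replication-dependent histone genes, 7 of 12 were higher and 1 lower (3 and 1 of 6 with unique sequence). Their transcripts end without a poly(A) tail in dividing cells, so libraries made from poly(A) RNA hold only part of them. HIST1H1C, a linker histone of unique sequence, had 25.7 and 21.1 CPM under SP600125 and 5.89 and 5.58 CPM in NT (2.03 ± 0.18). In the KLF family 4 of 15 rose (2 without NT replicate 2) and 5 fell. KLF9, induced by glucocorticoids, had 126 and 123 CPM under SP600125, 48.7 and 44.2 CPM under SR11302 and 49.3 and 44.3 CPM in NT (1.41 ± 0.14 over NT), while KLF16 fell by 1.32. In the prostaglandin pathway 4 of 14 rose and 6 fell, with the receptor PTGFR at 3.85 and 4.75 CPM under SP600125 and 14.3 and 13.3 CPM in NT (-1.69 ± 0.21). In the MYC network 1 of 19 rose, the MAX partner MXI1 (1.57 ± 0.17), and 5 fell. Homologous recombination and Fanconi genes were higher in 3 and lower in 4 of 24 (2 lower without either NT library), with FANCA at -1.30 ± 0.15 and the end resection factor RBBP8 at 1.10 ± 0.12. Nuclear genes of oxidative phosphorylation were mostly not called, 4 of 32 higher (2 without NT replicate 1 or SP600125 replicate 1) and 2 lower (1 without SP600125 replicate 2). Airway secretory genes were higher in 3 and lower in 4 of 15 (1 lower without NT replicate 2, 2 without SP600125 replicate 1), with the pioneer factor FOXA1 at 54.8 and 44.8 CPM under SP600125 and 24.4 CPM in both NT libraries (1.03 ± 0.18).

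Apart from the lists, the 12 largest rises among genes with at least 10 CPM in the higher group began with LPL. This gene, the lipoprotein lipase, had 13.5 and 18.9 CPM under SP600125 and 0.718 and 0.936 CPM in NT (4.27 ± 0.31, adjusted p = 3.41e-07). COBL, an actin nucleator, had 15.8 and 14.4 CPM against 0.814 and 1.18 CPM in NT (3.90 ± 0.21), and SLC27A2, which activates very long chain fatty acids, 34.2 and 23 CPM against 2.06 and 2.2 CPM (3.74 ± 0.21). GLP2R (3.64), INPP5D (3.22), SMOC1 (3.19), the retinal reductase DHRS3 (3.10), the lysosomal fucosidase FUCA1 (3.06) and MROH8 (3.01) followed, beside NR4A3, NR4A2 and EFNA1 above. SMOC1, a matricellular calcium-binding protein, stood at 394 and 359 CPM under SP600125, 20.3 and 20.9 CPM under SR11302 and 41.8 and 40.5 CPM in NT.

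The largest falls included GALNT5, which starts O-linked sugar chains (0.156 and 0.243 CPM against 13.7 and 12 CPM in NT, -5.98 ± 0.44, adjusted p = 1.98e-07), ACTG2, SPOCD1 (0.52 and 0.852 CPM against 29.7 and 34.8 CPM, -5.57 ± 0.25) and CEP295NL (-5.27 ± 0.31). TNC came next, then RGS4, a brake on G protein signalling, with 1.04 and 2.25 CPM under SP600125 and 48.9 and 46.5 CPM in NT (-4.88 ± 0.25). SPON1 (-4.59), POSTN, the amino acid carrier SLC38A5 (-4.53), the angiotensin receptor AGTR1 (-4.48) and THBS2 followed. Each of these genes was also called lower than under SR11302, with GALNT5 at -6.12 ± 0.43. SR11302 itself left GALNT5 at 15.2 and 13 CPM but ACTG2 at 1.85 and 2.2 CPM.

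Among 9 oncogenes that the study named, chosen by it partly on these samples, 2 rose and 2 fell in B2B. CCNE1 rose as given above, and SDHAF2, an assembly factor of succinate dehydrogenase, rose to 45.5 and 40 CPM, against 23.8 and 26.9 CPM in NT (0.75 ± 0.15). KLF6 fell to 115 and 146 CPM, against 244 and 245 CPM in NT (-0.91 ± 0.12), and HSP90AB1 by 0.84, though 59.9% of its windows are unique and it was not called against SR11302. SRC (74.7 and 66.3 CPM against 55.2 and 62.3 CPM in NT, 0.26 ± 0.11), CCND1 (-0.24 ± 0.11), EGFR (-0.35 ± 0.11), FGFR1 (-0.16 ± 0.13) and POU5F1 (-0.40 ± 0.29, 21% unique windows) were within the fold minimum, but POU5F1 was called lower without SP600125 replicate 2 (-0.94, adjusted p = 0.026). Of the 540 tested genes of the study's cancer gene list, tumour suppressors included, 101 were higher and 110 lower, shares a little under those of all genes. Between the inhibitors, EPGN, an EGF receptor ligand, was among the genes that stood furthest below SR11302 (0.312 and 0.0609 CPM under SP600125, 8.68 and 6.87 CPM under SR11302, -5.27 ± 0.44), and MMP1, COBL, SMOC1, INPP5D and NR4A2 stood furthest above it.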

How the data were processed

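Poly(A) RNA of B2B and A549 was sequenced in 12 libraries, 2 for each of 6 groups taken from the labels. The authors deposited whole-number counts of reads per gene, made with STAR 2.7.10a and HTSeq 1.99.2 per the submitters' processing notes. No source used here gives the read length or the strand setting. The 5 summary lines of each HTSeq table were dropped, leaving 26485 gene symbols, and their values enter only the tally of reads in no gene.

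Counts of all 12 libraries were fitted in edgeR 4.0.16 (R 4.3.3) with TMM scaling, filterByExpr (16373 genes) and the quasi-likelihood F-test, with 6 residual degrees of freedom shared over the 6 groups. The SE is the log2 fold change divided by the root of F. In simulated data for SP600125 against NT over 16135 genes, 40 genes were changed at each fold size. Of these, 97.5% at 2-fold and 47.5% at 1.5-fold were recovered, with 13 false calls. In the real data 43.8% of tested genes were called, far more than were changed here. The 13 is therefore no estimate of the false calls among them. Uniqueness is the share of 36-base windows, every 10 bases, of a gene's GENCODE release 44 transcript that occur once in the genome, and 24531 symbols matched. Replicates differed beyond counting noise (chi-square per gene from 2.58 to 44.2).

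Named genes were the 12 largest called rises and falls at 10 CPM or more with unique windows, the AP-1 subunits, the oncogenes the study named, up to 4 of the most changed called members of each list at 5 CPM or more, and the 5 largest differences per direction in the side comparisons. ASNS, BAX, BCL2, BCL2L1, COL12A1, CXCL8, EGR1, FN1, ISG15, ITGB5, KRT5, KRT8, KRT18, LAMB2, MAPK8, MAPK9, MDM2, MKI67, PECAM1, PLK1, TGFA, TP63 and ZEB1 were named after their values were seen. Members and lists were chosen with earlier results of these data known. Alternatives were RLE scaling, library size alone, no filter, DESeq2 1.42.0, only the groups compared, the replicate number as a block, leaving out each library and, added after seeing the data, only genes with at least 95% unique windows. Promoter sequences are from RefSeq. Some of the genes that the naming rule chose are not reported here.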

Additional observations from a re-analysis of the deposited data

Results flagged for a closer look

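The response of B2B to SP600125 differed from that of A549, by the interaction term of edgeR's quasi-likelihood test, in 2137 genes that were higher in B2B minus A549 and in 1984 that were lower. Among the genes with large differences, COBL stood at 4.60 and NR4A2 at 4.37 on the log2 scale. COBL had 30.9 and 29.3 CPM in A549 under SP600125 and 48.9 and 48.7 CPM in A549 NT, and NR4A2 28.4 and 30.4 CPM under SP600125 and 52.8 and 49.8 CPM in NT, so both fell in A549 and rose in B2B. FOSB (4.63), NR4A1 (4.35), FOS (3.98) and JUNB (1.85) had the same sign, JUNB with 114 and 107 CPM in A549 under SP600125 and 129 and 106 CPM in A549 NT. FOSL2 differed by 0.74, and had 83.9 and 80.6 CPM in A549 under SP600125 and 219 and 226 CPM in A549 NT. It thus fell in both lines.

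LPL (7.50), RGS4 (-10.39), ACTG2 (-7.84) and AGTR1 (-5.69) rest on A549 libraries with at most 0.373 CPM, so the sizes depend on the prior count and are no bound. RGS4 had no count in either A549 NT library, and LPL none in either A549 SP600125 library. LPL lost its call without any 1 of the 8 libraries other than A549 NT replicate 2, with the value at 4.27 without A549 NT replicate 1, and ACTG2 lost its call without A549 SP600125 replicate 1 (-6.85). SPOCD1 (-6.48), a gene with 1.19 and 2.07 CPM in A549 under SP600125 and 0.889 and 0.85 CPM in A549 NT, and GALNT5 (-4.98), with 1.04 and 1.45 CPM under SP600125 and 1.89 and 3.13 CPM in NT, kept their calls without each library in turn.

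Of the oncogenes that the study named, CCNE1 (1.72), FGFR1 (1.29), SDHAF2 (0.65) and SRC (0.63) were higher in the interaction, and HSP90AB1 (-0.61) and EGFR (-0.59) lower. CCNE1 had 30.3 and 30.5 CPM in A549 under SP600125 and 36.9 and 43.1 CPM in A549 NT. The calls of SDHAF2, SRC, HSP90AB1, EGFR and of the subunit JUND (0.54) were each lost without at least 1 library, among them A549 SP600125 replicate 1 for all 5.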

How the results depend on the processing

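SP600125 against NT in B2B gave 2832 to 3418 higher and 3202 to 3439 lower genes when each of the 4 libraries compared was left out in turn, 3480 to 3528 higher and 3685 to 3758 lower without a library of A549 SP600125, A549 NT or B2B SR11302, and 2210 higher genes (2621 lower) when only the 11482 genes with unique windows were tested, which is fewer genes. The interaction gave 1374 to 1877 higher and 1320 to 1822 lower genes over the 8 libraries compared, and 2089 to 2098 higher and 2009 to 2017 lower without a B2B SR11302 library, with 1374 higher without B2B NT replicate 1, 1412 without A549 SP600125 replicate 1 and 1320 lower without A549 NT replicate 1. Against SR11302 the counts were 1983 to 2535 higher and 2416 to 2794 lower over the 4 libraries compared. With library size alone the interaction split into 2495 higher and 1706 lower and did not move by more than 1.5 times. Over the left-out libraries AKR1B10 ran from -5.22 to 2.05, AKR1C2 from -4.68 to 2.29 and ALDH1A1 from -4.59 to 0.43 against NT, and in the interaction AKR1B10 from -5.13 to 2.14 and AKR1C2 from -4.53 to 2.44. The upper end was without B2B NT replicate 2 each time, and the cause was not tested.

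The 226 named genes called against NT stayed called and kept their direction under RLE scaling, no filter, DESeq2 and only the groups compared, and 3 were lost with library size alone (AHR, CD68 and THY1). Leaving out a B2B SP600125 or NT library lost 2 to 6 of them. Same-numbered replicates did not deviate together (r from -0.049 to -0.011), so the numbers do not pair the libraries. With the replicate number as a block, 3436 genes were higher and 3645 lower, with 0 of the 226 lost. The depth of 15103456 to 24917854 counted reads in B2B SP600125 and NT libraries, with 2 libraries a group, limits calls of small changes and of genes under about 1 CPM.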
